A study of Mus musculus with 6 samples.

Results

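The enzymes that break down amino acids were examined in whole mouse kidney, as 55 genes chosen by symbol and grouped into 10 pathways. The groups covered the branched-chain amino acids, glycine and serine, the aromatic amino acids, tryptophan, proline and hydroxyproline, lysine, the sulphur amino acids, the transaminases, arginine and histidine. Each symbol was found among the 54532 gene identifiers of the deposited table, and 54 of the 55 genes had enough reads to be tested. The gene left out was Hal, histidine ammonia-lyase, the only member for histidine, which lay between 0.0205 and 0.113 FPKM (fragments per kilobase of transcript, scaled to library depth, as computed by the authors).

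In their breakdown amino acids give up their nitrogen, in many cases to a transaminase, and the carbon skeletons are cut down to pyruvate, acetyl-CoA or intermediates of the citric acid cycle. Much of this takes place in mitochondria. In the kidney the proximal tubule, which reabsorbs filtered amino acids, is the main site of these enzymes, and it also makes arginine from citrulline, serine from glycine, and glucose from amino acid carbon.

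The study asked how adiponectin made by tubule cells changes the kidney. Control mice carried KsprtTA alone, a doxycycline-dependent activator driven in renal tubule epithelium by the Ksp promoter, and KSPAPN mice carried KsprtTA together with TRE-Adiponectin, which the activator switches on. Males of both groups, on a C57BL/6 background, ate chow with doxycycline at 600 mg/kg for 4 days, so both groups received the drug and the activator. Each group had 3 libraries and each library was a pool of 3 mice, so the spread between libraries is that of pools. The labels call the Control genotype WT and give kidney as the tissue, although their extraction text speaks of liver, and no age was found for these mice. Total counts ran from 17183358 to 20871173 per library. The transgene separated the groups as labelled, with 0 to 2 reads on Adipoq in the Control libraries and 17483 to 26811 in the KSPAPN libraries.

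Enzymes of 8 of the 10 pathways were among those that fell in KSPAPN, and of the 17 branched-chain enzymes 1 fell. In a fit corrected for GC content and gene length, 7 members fell, where 1.87% of all genes did. They were 2 each of the branched-chain, tryptophan and sulphur groups and 1 transaminase. Differences between pathways were not tested. Of the 54 tested, 12 fell and 0 rose at an adjusted p under 0.05 (edgeR quasi-likelihood test, Benjamini-Hochberg over all 16017 genes tested), where 2.25% of all genes tested fell and 0.393% rose. At an unadjusted p under 0.05, 34 members were lower, against 11.2% of all genes, and 1 was higher, against 7.52%. The 12 were Hpd, Acmsd, Haao, Bhmt2, Bckdha, Ass1, Asl, Gpt2, Shmt2, Gcdh, Sardh and Cbs, which came from 8 of the 10 pathways. They make up 22.2% of the members tested. The members were chosen with earlier results of these data known, so this share is a description and not a test. The fold changes of 47 members were below 0 on the log2 scale and those of 7 above it, with a median of -0.32 beside 0.012 for all genes tested.

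The members were abundant transcripts, with a median of 37.2 FPKM beside 3.99 FPKM for all genes tested, and abundant genes were called more often. Among genes with a mean of at least 10 FPKM over all libraries, 5.64% of 4454 fell, with a median log2 fold change of -0.076. Of the 48 members at that level, 11 fell, or 22.9%, with a median of -0.32. At an unadjusted p under 0.05 in edgeR, 31 of these 48 members and 1059 of the 4454 genes were lower. At that level 1 member and 277 genes were higher. All KSPAPN libraries lay below all Control libraries for 27 of the 48 members and 1194 of the 4454 genes.

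**Figure D1:**
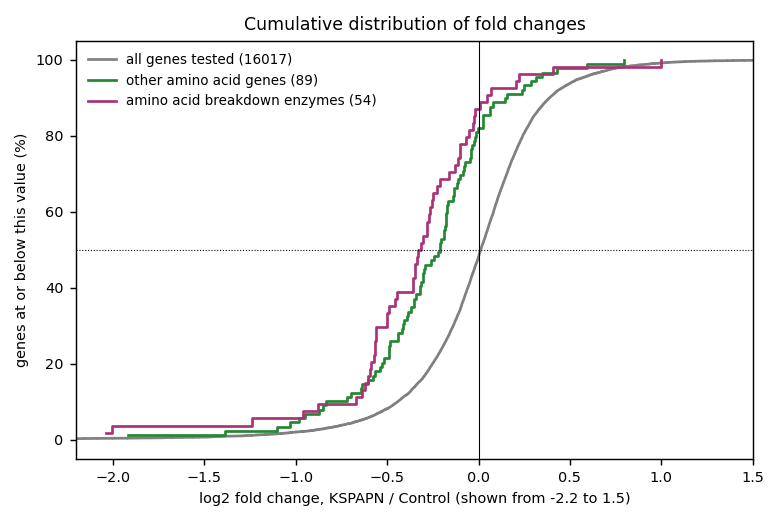
Cumulative share of genes (vertical axis, %) at or below each log2 fold change of KSPAPN over Control (horizontal axis, from the edgeR fit) for all 16017 genes tested, 89 other amino acid genes and the 54 amino acid breakdown enzymes. The curve of the enzymes crosses 50% at -0.32, that of the other amino acid genes at -0.21 and that of all genes at 0.012.

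**Figure D2:**
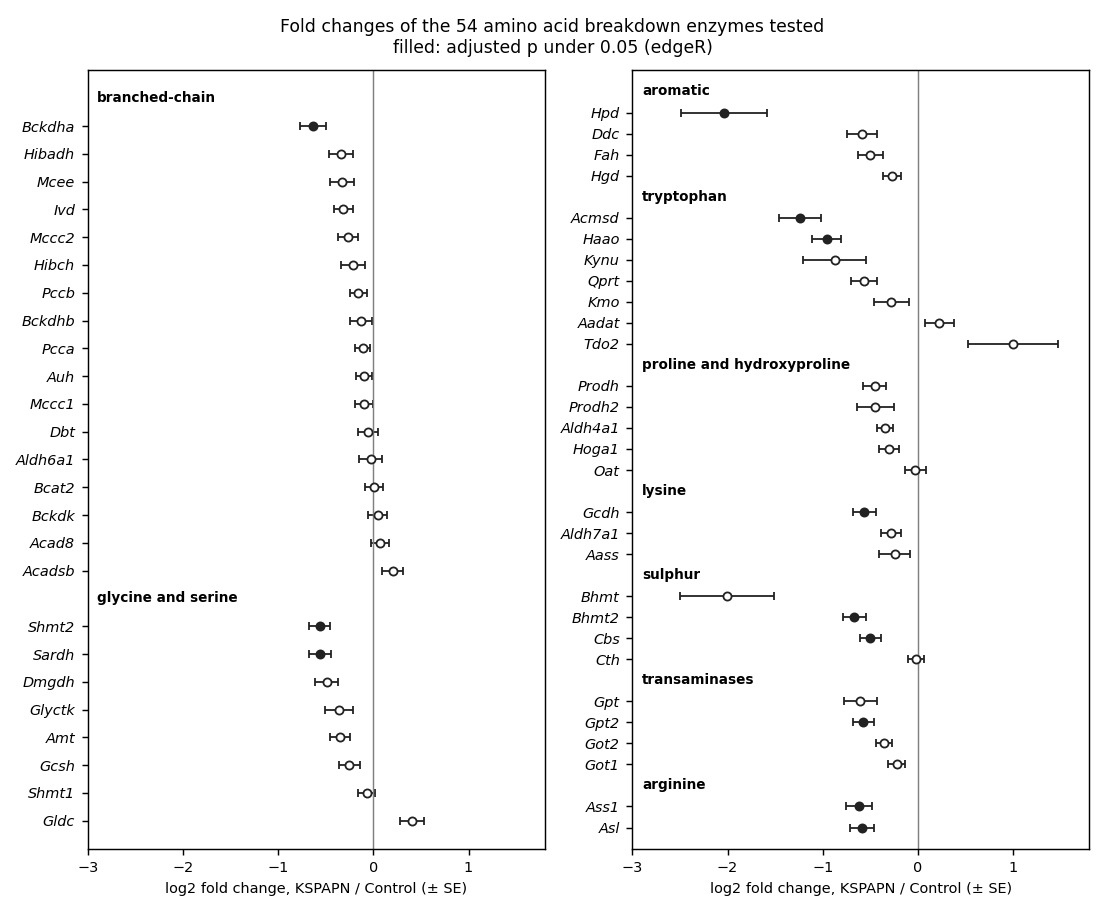
Log2 fold change of KSPAPN over Control (horizontal axis) with its standard error for each of the 54 members tested, grouped by pathway and sorted within it. Filled circles mark the 12 members with an adjusted p under 0.05 in edgeR, all to the left of 0, and Hpd and Bhmt lie farthest left at -2.04 and -2.01.

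The decrease was not equal in the 3 pools of a group. Taken over the 54 members, the median log2 CPM (counts scaled to TMM-adjusted library size) relative to the Control mean was 0.058, 0.038 and -0.11 in Control replicates 1 to 3, and -0.39, -0.22 and -0.31 in KSPAPN replicates 1 to 3. The groups did not overlap in this median, while the same median over all genes stayed between -0.012 and 0.031. Control replicate 3 was the lowest Control library for 38 of the 54 members, and KSPAPN replicate 1 was the lowest KSPAPN library for 37.

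The 12 calls depended on which pools were used. Without Control replicate 1, Control replicate 2 or KSPAPN replicate 3, none of the 12 passed an adjusted p of 0.05 in edgeR, and the lowest adjusted p was 0.0756, 0.0520 and 0.0719. Shmt2, Haao and Acmsd passed with each of the other 3 libraries left out. Every one of the 12 kept a negative fold change in all 6 of these fits, between -2.56 and -0.41. After each library was corrected for GC content and gene length, 6 of the 12 passed, namely Bckdha, Haao, Acmsd, Cbs, Bhmt2 and Gpt2, and a further member, Hibadh, where 1.87% of all genes were lower and 0.606% higher. The median of the members was then -0.25 beside 0.043 for all genes. DESeq2 gave 21 lower members and 1 higher, where 5.31% of the genes it tested were lower and 1.29% higher.

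**Figure D3:**
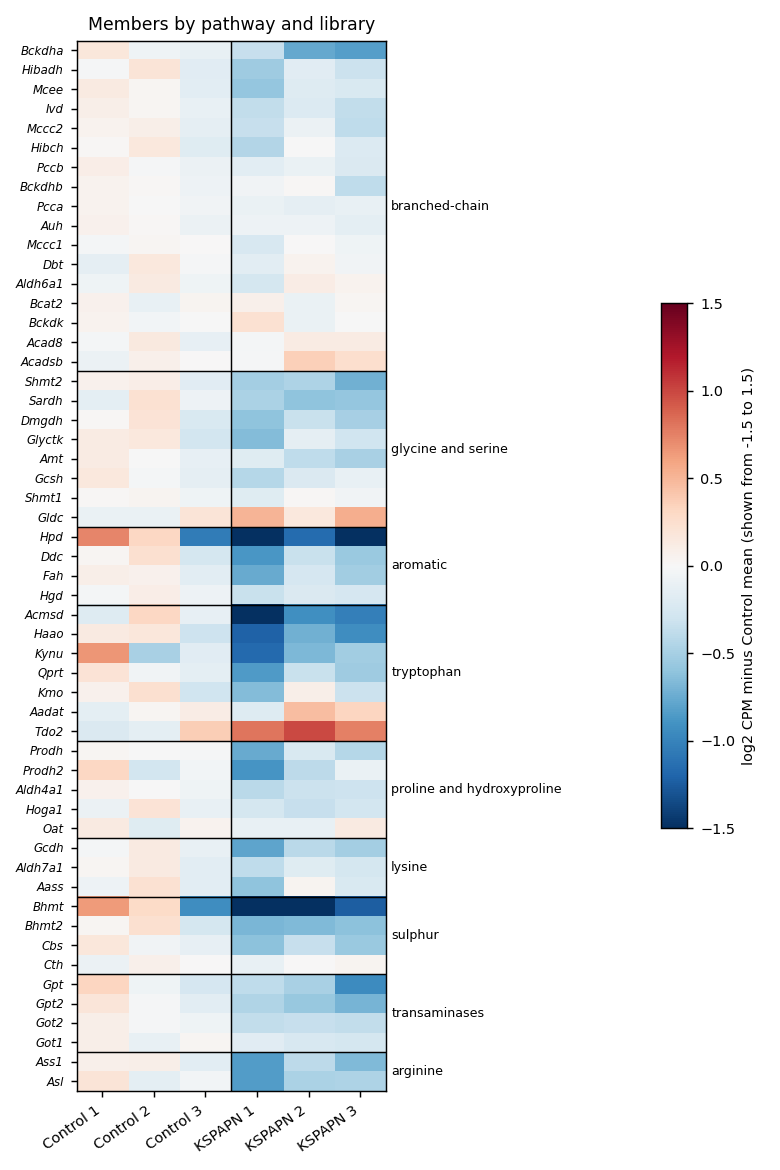
Log2 CPM of each tested member minus its Control mean (colour, blue for lower and red for higher) in the 3 Control and 3 KSPAPN libraries, with members grouped by pathway. The 3 KSPAPN columns are mostly blue, with medians of -0.39, -0.22 and -0.31, and Gldc, Tdo2, Aadat and Acadsb hold the strongest red in KSPAPN.

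Some markers of the proximal tubule were lower as well. Of 14 such markers, 4 were lower at an adjusted p under 0.05 in edgeR and 0 higher. Of all genes tested 2.25% were lower, and of those with a mean of at least 10 FPKM 5.64%. Without Slc7a13 and Slc22a7, 2 of 12 markers were lower. The 4 lower markers of the 14 included the organic anion transporters Slc22a6 (log2 fold change -0.46) and Slc22a7 (-1.68). The others were the cystine and aspartate transporter Slc7a13 (-1.46) and the inositol-degrading oxygenase Miox (-0.60). Of the 14 markers, 13 had a log2 fold change below 0 and 1 above it. Their median was -0.24, beside -0.32 for the members tested. Slc13a3 was at -0.49 (adjusted p from edgeR = 0.0503) and Lrp2 at -0.32. The phosphate transporter Slc34a1 was at -0.15 and the fatty acid transporter Slc27a2 at -0.018, and none of these passed. The summed level of the 14 was 4450 to 5166 FPKM in Control and 3680 to 4021 FPKM in KSPAPN, without overlap, and none was at 0. This sum includes the 4 that passed. Slc12a1, the salt transporter of the thick ascending limb, was higher by 0.52 (adjusted p from edgeR = 0.0437), and the other 4 markers of that segment did not pass. Their part in the results on the enzymes was not tested. In whole kidney, fewer proximal tubule cells and less of these transcripts per cell cannot be told apart.

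Of 8 hepatocyte markers, 5 stayed under 1 FPKM in every library. Alb, the albumin gene of hepatocytes, was between 0.275 and 4.46 FPKM. Apob was between 7.40 and 12.9 FPKM (log2 fold change -0.049), and Ttr, which passed at -1.17 (adjusted p from edgeR = 0.0388), was between 38.3 and 145 FPKM. All 5 adipocyte markers stayed under 1 FPKM in every library.

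Sequences just before the start sites are shown for 3 of the 12 called members, Gcdh, Gpt2 and Shmt2, whose upstream windows hold no annotated exon. They are 250 bases long and come from RefSeq on GRCm38.p6, 5′ to 3′ on the strand of the gene. The window of Gcdh lies at chr8:84893922-84894171 on the minus strand, that of Gpt2 at chr8:85492326-85492575 on the plus strand, and that of Shmt2 at chr10:127522445-127522694 on the minus strand.
Gcdh: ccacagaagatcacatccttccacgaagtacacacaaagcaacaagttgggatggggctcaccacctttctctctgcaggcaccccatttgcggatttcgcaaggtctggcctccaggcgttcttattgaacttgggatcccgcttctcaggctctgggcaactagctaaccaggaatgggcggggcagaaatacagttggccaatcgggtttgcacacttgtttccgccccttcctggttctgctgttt
Gpt2: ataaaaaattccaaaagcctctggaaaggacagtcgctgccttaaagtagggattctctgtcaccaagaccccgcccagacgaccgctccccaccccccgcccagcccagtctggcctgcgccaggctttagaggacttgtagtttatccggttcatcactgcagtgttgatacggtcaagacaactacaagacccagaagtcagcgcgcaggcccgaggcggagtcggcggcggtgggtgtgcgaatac
Shmt2: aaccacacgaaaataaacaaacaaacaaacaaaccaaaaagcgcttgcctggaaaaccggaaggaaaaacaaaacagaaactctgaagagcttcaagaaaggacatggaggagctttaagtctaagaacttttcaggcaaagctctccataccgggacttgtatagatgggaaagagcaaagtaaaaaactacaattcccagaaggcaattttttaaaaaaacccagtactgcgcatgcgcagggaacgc
The GC content of these windows was 53.6% for Gcdh, 57.6% for Gpt2 and 40.8% for Shmt2. None holds the cyclic AMP response element TGACGTCA, the HNF4 element CAAAGTCCA or the HNF1 half-site GTTAAT on either strand, and so no letters are in capitals. Among the 49 members with a promoter in the RefSeq table, 0 held TGACGTCA, 1 held CAAAGTCCA (Aadat) and 6 held GTTAAT (Bckdhb, Glyctk, Got2, Haao, Hoga1 and Prodh2). The share of all 27025 genes in that table was 1.77% for the first motif, 0.451% for the second and 7.49% for the third.

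In the kynurenine pathway of tryptophan, 2 of the 7 members passed the test, Acmsd and Haao, which act one after the other late in the pathway. Of all genes tested 2.25% fell, and of those with a mean of at least 10 FPKM 5.64%. Whether any pathway differs from these shares was not tested. Acmsd, the decarboxylase that diverts the pathway from NAD synthesis towards oxidation, was at 45.2, 64.0 and 47.3 FPKM in Control replicates 1, 2 and 3 and at 13.7, 27.3 and 25.2 FPKM in KSPAPN. All KSPAPN libraries lay below all Control libraries, and the means were 52.2 ± 10.3 and 22.1 ± 7.36 FPKM (SD, n = 3). The log2 fold change was -1.24 ± 0.22 (SE, adjusted p from edgeR = 0.0225), so that the fitted level fell by 57.6%.

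Haao, 3-hydroxyanthranilate dioxygenase, makes the substrate of Acmsd. It was at 168, 171 and 123 FPKM in Control and at 64.5, 92.5 and 79.7 FPKM in KSPAPN. The groups were far apart, with means of 154 ± 26.9 and 78.9 ± 14.0 FPKM (SD, n = 3) and a log2 fold change of -0.96 ± 0.15 (SE, adjusted p from edgeR = 0.0134). Qprt, quinolinate phosphoribosyltransferase, leads from the same branch point to NAD. It was at 39.1, 32.8 and 30.5 FPKM in Control and at 18.6, 27.1 and 23.3 FPKM in KSPAPN. Its groups did not overlap, but with a log2 fold change of -0.57 its adjusted p from edgeR was 0.0604.

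The earlier steps gave a mixed picture. Aadat, the aminotransferase that makes kynurenic acid and also acts on aminoadipate, was the most abundant member of the pathway. It was at 187, 211 and 222 FPKM in Control and at 178, 287 and 258 FPKM in KSPAPN, so KSPAPN held both the lowest and the highest value (log2 fold change 0.22 ± 0.15 (SE), adjusted p from edgeR = 0.477). Kmo, kynurenine monooxygenase, had a log2 fold change of -0.28 with overlapping groups. Kynureninase, encoded by Kynu, was scarce, at 1.20, 0.534 and 0.666 FPKM in Control and 0.321, 0.472 and 0.518 FPKM in KSPAPN (log2 fold change -0.88, adjusted p from edgeR = 0.191). Tdo2, the dioxygenase that opens the pathway in liver, stayed between 0.0695 and 0.197 FPKM, on 5 to 15 reads per library, and its log2 fold change of 0.998 did not pass (adjusted p from edgeR = 0.287). It was the only tested member whose KSPAPN libraries all lay above Control, where 10.8% of all genes tested did so. Tdo2 reached the minimum count of 10 only in KSPAPN, with 13 to 15 reads there and 5 to 8 in Control. Its gap upward is therefore tied to its being tested, and nothing is drawn from it.

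The 4 aromatic amino acid enzymes were each lower in all KSPAPN libraries than in any Control library. Over the members tested, 30 had such a gap downward, against 13.5% of all genes tested. With a mean of at least 10 FPKM, it was found in 27 of 48 members and in 1194 of 4454 genes. Hpd, 4-hydroxyphenylpyruvate dioxygenase, the second enzyme of tyrosine breakdown, was at 24.4, 18.2 and 7.03 FPKM in Control and at 2.22, 6.61 and 3.36 FPKM in KSPAPN. The highest KSPAPN library and the lowest Control library were nearly equal,. Hpd rested on 110 to 257 reads in KSPAPN and on 263 to 962 in Control. Its means were 16.5 ± 8.80 and 4.06 ± 2.28 FPKM (SD, n = 3), and its log2 fold change of -2.04 ± 0.45 (SE, adjusted p from edgeR = 0.0431) was the lowest of all members, with the widest standard error of the 12 called.

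The other members of the aromatic group did not pass. Fah, fumarylacetoacetase, which completes the pathway, was at 189, 185 and 159 FPKM in Control and at 103, 149 and 123 FPKM in KSPAPN (log2 fold change -0.50, adjusted p from edgeR = 0.0761). Hgd, homogentisate dioxygenase, acts between Hpd and Fah and was at 154, 168 and 148 FPKM in Control and at 122, 135 and 131 FPKM in KSPAPN (log2 fold change -0.27, adjusted p from edgeR = 0.143). Ddc, the decarboxylase with which the proximal tubule makes dopamine, was at 20.1, 23.3 and 16.4 FPKM in Control and at 10.6, 15.8 and 13.4 FPKM in KSPAPN (log2 fold change -0.59, adjusted p from edgeR = 0.0780). In all 3, KSPAPN replicate 1 was the lowest library.

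**Figure D4:**
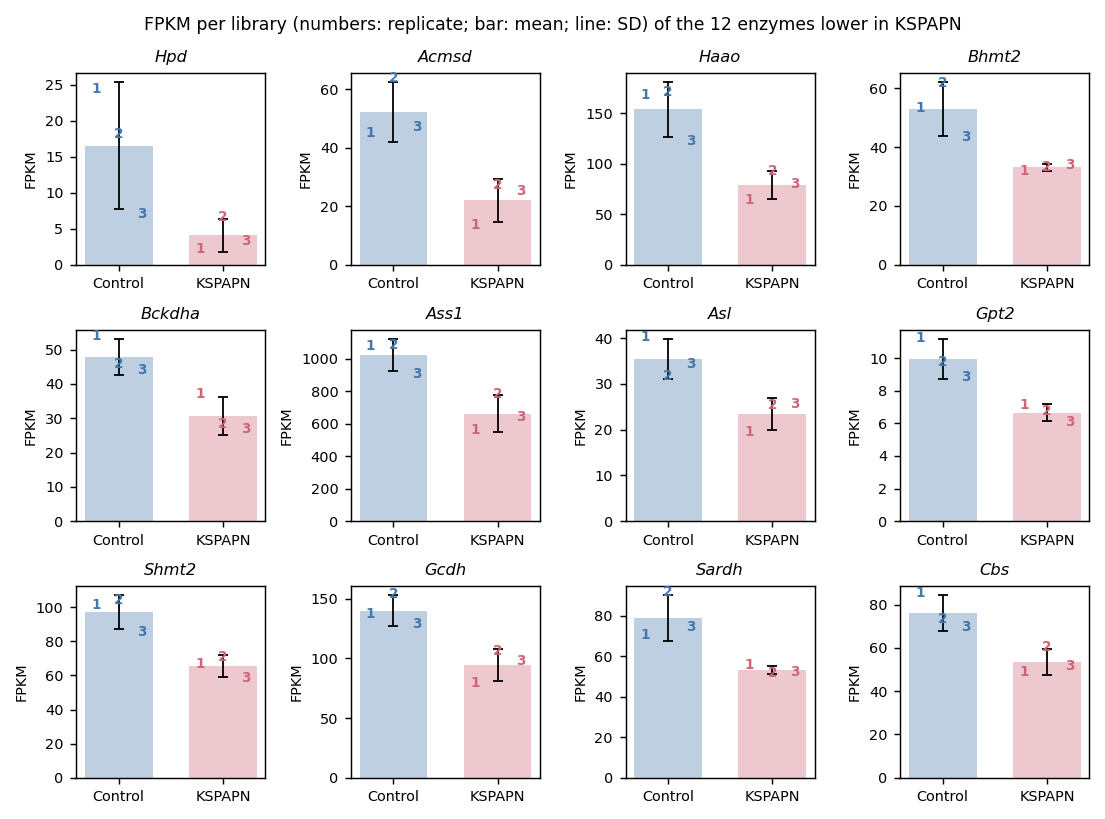
FPKM (vertical axis, from 0) of the 12 members with an adjusted p under 0.05 in edgeR, by group. Digits mark the replicate, bars the mean and lines the SD of 3 libraries. In each panel the 3 KSPAPN libraries lie below the 3 Control libraries, with the narrowest gap for Hpd at 7.03 against 6.61 FPKM.

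Glycine and serine metabolism held 2 members of 8 that fell, Shmt2 and Sardh. Beside this, 2.25% of all genes tested fell, and 5.64% of those with a mean of at least 10 FPKM. Shmt2, the mitochondrial serine hydroxymethyltransferase that interconverts glycine and serine, was at 101, 104 and 85.6 FPKM in Control and at 66.9, 70.8 and 58.2 FPKM in KSPAPN. Its mean of 96.9 ± 9.93 FPKM in Control stood against 65.3 ± 6.42 FPKM in KSPAPN (SD, n = 3), with a log2 fold change of -0.56 ± 0.11 (SE, adjusted p from edgeR = 0.0274). Shmt1, the cytosolic form, had a log2 fold change of -0.071 with overlapping groups.

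Sardh and Dmgdh strip the methyl groups from sarcosine and dimethylglycine on the way from choline to glycine. Sardh was at 70.6, 91.5 and 74.2 FPKM in Control and at 55.5, 51.9 and 52.1 FPKM in KSPAPN, and the KSPAPN libraries were close together while Control replicate 2 stood above the others. Its log2 fold change was -0.56 ± 0.11 (SE, adjusted p from edgeR = 0.0306). Dmgdh was at 38.1, 43.2 and 32.0 FPKM in Control and at 24.3, 29.8 and 26.4 FPKM in KSPAPN, without overlap, and at -0.49 it did not pass (adjusted p from edgeR = 0.0622).

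Of the glycine cleavage system, a mitochondrial complex that splits glycine, no member passed, and their values differed in direction. Gldc, its P protein and decarboxylase, was at 28.6, 28.6 and 34.8 FPKM in Control and at 42.9, 34.3 and 44.4 FPKM in KSPAPN. The groups overlapped at KSPAPN replicate 2 and Control replicate 3, and the log2 fold change was 0.41 ± 0.13 (SE, adjusted p from edgeR = 0.117, from DESeq2 = 0.0383). Amt, the T protein, was at 33.8, 31.1 and 28.5 FPKM in Control and at 26.8, 24.0 and 22.1 FPKM in KSPAPN (log2 fold change -0.35, adjusted p from edgeR = 0.114). Gcsh, the H protein, had a log2 fold change of -0.25 and Glyctk, glycerate kinase, of -0.36, both with overlapping groups. Of the exon bases of Glyctk, 52.1% also belong to an antisense gene, D030055H07Rik, with 19 to 47 reads per library, and it is not stated whether reads were counted by strand.

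The ratio of 2 enzymes within a library does not depend on how libraries are scaled. The ratio of Gldc to Amt in FPKM was 0.846, 0.919 and 1.22 in Control and 1.60, 1.43 and 2.004 in KSPAPN. The ratio of Shmt2 to Shmt1 was 6.94, 7.01 and 6.24 in Control and 5.37, 4.82 and 4.22 in KSPAPN. In both, the groups did not overlap, and the exact permutation test gave a two-sided p of 0.1, the smallest that 3 against 3 libraries allow. In all, 13 such ratios were formed, of pairs chosen after the fold changes were known, and the adjusted p of those without overlap was 0.144.

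**Figure D5:**
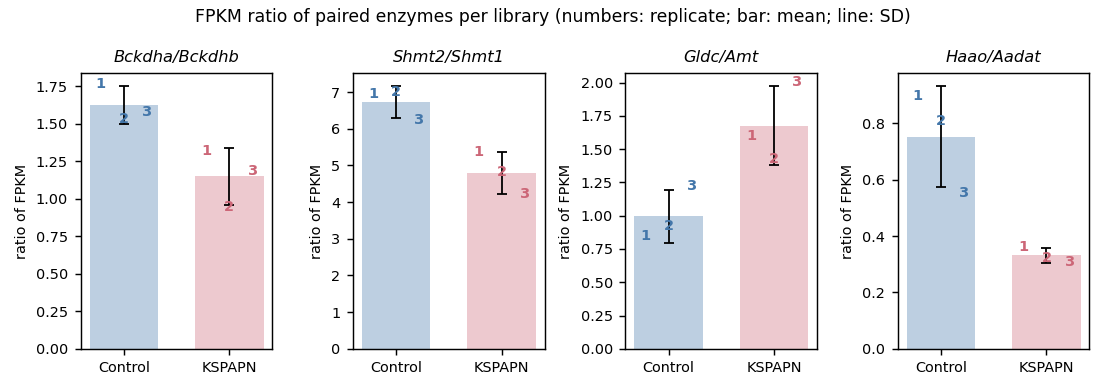
Ratio of FPKM within a library (vertical axis, from 0) for 4 pairs of enzymes, by group. Digits mark the replicate, bars the mean and lines the SD of 3 libraries. The ratio of Gldc to Amt is higher in each KSPAPN library than in any Control library, and the ratios of Bckdha to Bckdhb, Shmt2 to Shmt1 and Haao to Aadat are lower.

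Of the 4 sulphur amino acid enzymes 2 fell, Cbs and Bhmt2, where 2.25% of all genes tested fell and 5.64% of those at 10 FPKM or more. Cbs, cystathionine beta-synthase, was at 85.3, 73.2 and 69.7 FPKM in Control and at 48.7, 60.3 and 51.6 FPKM in KSPAPN. It fell from 76.1 ± 8.21 to 53.5 ± 6.02 FPKM (SD, n = 3), a log2 fold change of -0.50 ± 0.11 (SE, adjusted p from edgeR = 0.0425). Cth, cystathionine gamma-lyase, which takes the next step, was at 67.1, 74.9 and 71.1 FPKM in Control and at 64.9, 71.5 and 72.9 FPKM in KSPAPN. Its groups overlapped throughout, and its log2 fold change of -0.021 ± 0.089 (SE) changed sign with total counts as the only scaling (0.047) and after the correction for GC content and gene length (0.012). The ratio of Cbs to Cth was 1.27, 0.978 and 0.979 in Control and 0.751, 0.843 and 0.708 in KSPAPN, without overlap, and the exact permutation test (two-sided p = 0.1, the smallest possible, adjusted 0.144) could not show a difference at this number of libraries.

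Bhmt2 and Bhmt return homocysteine to methionine with a methyl group from S-methylmethionine and betaine, respectively. Bhmt2 was at 53.4, 61.8 and 43.4 FPKM in Control and at 32.0, 33.4 and 34.1 FPKM in KSPAPN. The KSPAPN libraries agreed closely at 33.1 ± 1.06 FPKM (SD, n = 3), against 52.9 ± 9.21 FPKM in Control, and the log2 fold change was -0.67 ± 0.12 (SE, adjusted p from edgeR = 0.0225). Bhmt, an abundant liver enzyme, was nearly absent, at 1.10, 0.851 and 0.356 FPKM in Control and at 0.0820, 0.209 and 0.285 FPKM in KSPAPN, on 11 to 117 reads per library (log2 fold change -2.01 ± 0.49 (SE), adjusted p from edgeR = 0.0611).

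Bhmt2 and Dmgdh are neighbours that start head to head on mouse chromosome 13. On GRCm38, Bhmt2 lies at chr13:93655720-93674302 on the minus strand, Dmgdh at chr13:93674433-93752833 on the plus strand, and Bhmt at chr13:93616675-93637961 on the minus strand. The sequence shown is the 130 bases between the annotated starts of Bhmt2 and Dmgdh, chr13:93674303-93674432 on the plus strand, because 1 stretch lies upstream of both genes.
Bhmt2 to Dmgdh: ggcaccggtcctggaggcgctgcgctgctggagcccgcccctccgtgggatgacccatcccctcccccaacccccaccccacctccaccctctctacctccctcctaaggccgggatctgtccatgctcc
It has a GC content of 70.8% with 6 CpG dinucleotides, and it holds none of the 3 motifs, so no letters are in capitals. The 2 genes had log2 fold changes of -0.67 and -0.49. The ratio of Bhmt2 to Dmgdh was 1.40, 1.43 and 1.36 in Control and 1.32, 1.12 and 1.29 in KSPAPN, without overlap between the groups.

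Both arginine enzymes fell, where 2.25% of all genes tested fell and 5.64% of those at 10 FPKM or more. Ass1, argininosuccinate synthase, with which the proximal tubule turns citrulline towards arginine, was the most abundant member of all. It was at 1079, 1082 and 909 FPKM in Control and at 560, 784 and 643 FPKM in KSPAPN, a drop from 1024 ± 99.0 to 662 ± 113 FPKM (SD, n = 3). The log2 fold change was -0.62 ± 0.14 (SE, adjusted p from edgeR = 0.0423). Asl, argininosuccinate lyase, completes the synthesis and was at 40.3, 31.8 and 34.3 FPKM in Control and at 19.4, 25.5 and 25.5 FPKM in KSPAPN (log2 fold change -0.59 ± 0.13 (SE), adjusted p from edgeR = 0.0388). KSPAPN replicate 1 was the lowest library for both. Of the Ass1 transcript, 73.1% is matched by a processed pseudogene, Gm5424, which carried 166 to 258 reads per library.

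The 4 transaminases, which pass amino groups to 2-oxoglutarate to form glutamate, were each lower in all KSPAPN libraries than in any Control library. Such a gap was found in 13.5% of all genes tested, and in 1194 of the 4454 with a mean of at least 10 FPKM. Of the 4 transaminases 1 passed, where 2.25% of all genes tested fell and 5.64% of those at 10 FPKM or more. Gpt2, the mitochondrial alanine aminotransferase, was at 11.3, 9.79 and 8.82 FPKM in Control and at 7.14, 6.74 and 6.10 FPKM in KSPAPN (log2 fold change -0.57 ± 0.11 (SE), adjusted p from edgeR = 0.0293). Gpt, its cytosolic counterpart, was at 17.5, 13.3 and 11.6 FPKM in Control and at 10.6, 10.03 and 7.20 FPKM in KSPAPN (log2 fold change -0.61 ± 0.18 (SE), adjusted p from edgeR = 0.102). The ratio of Gpt2 to Gpt overlapped between the groups, from 0.642 to 0.758 in Control and from 0.672 to 0.846 in KSPAPN.

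The aspartate aminotransferases work on both sides of the malate-aspartate shuttle. Got2, the mitochondrial form and the most abundant of the 4, was at 64.1, 59.5 and 57.2 FPKM in Control and at 46.0, 47.6 and 46.6 FPKM in KSPAPN (log2 fold change -0.36, adjusted p from edgeR = 0.0562). Got1, the cytosolic form, was at 45.9, 40.1 and 43.8 FPKM in Control and at 37.9, 36.8 and 35.8 FPKM in KSPAPN (log2 fold change -0.22, adjusted p from edgeR = 0.207).

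In lysine breakdown, 1 of 3 members passed, where 2.25% of all genes tested fell and 5.64% of those at 10 FPKM or more. Gcdh, glutaryl-CoA dehydrogenase, on which the lysine and tryptophan routes converge, was at 137, 154 and 129 FPKM in Control and at 79.3, 106 and 98.0 FPKM in KSPAPN. It fell from 140 ± 12.8 to 94.5 ± 13.7 FPKM (SD, n = 3), a log2 fold change of -0.56 ± 0.12 (SE, adjusted p from edgeR = 0.0377). Aldh7a1, an aldehyde dehydrogenase in the middle of the route, was at 68.9, 73.9 and 60.1 FPKM in Control and at 50.8, 59.6 and 56.0 FPKM in KSPAPN (log2 fold change -0.28, adjusted p from edgeR = 0.180). Aass, which takes the first step, had a log2 fold change of -0.25 with overlapping groups.

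No member of proline and hydroxyproline breakdown passed. At an unadjusted p under 0.05 in edgeR 4 of the 5 were lower, against 11.2% of all genes tested. Among genes with a mean of at least 10 FPKM, 1059 of 4454 were lower at that level. Prodh, proline dehydrogenase, was at 38.7, 37.9 and 37.4 FPKM in Control and at 22.2, 32.6 and 28.1 FPKM in KSPAPN (log2 fold change -0.46, adjusted p from edgeR = 0.0840). Aldh4a1, which both routes share, was at 72.2, 68.6 and 65.7 FPKM in Control and at 51.2, 55.4 and 55.2 FPKM in KSPAPN (log2 fold change -0.35, adjusted p from edgeR = 0.0657). The Control libraries of Prodh lay close together, and those of KSPAPN were spread. Of the exon bases of Aldh4a1, 32.5% also belong to Gm21969, which had 0 to 8 reads per library.

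Hoga1, the aldolase that ends hydroxyproline breakdown and yields glyoxylate, was at 66.3, 81.3 and 64.9 FPKM in Control and at 57.6, 56.0 and 58.0 FPKM in KSPAPN (log2 fold change -0.30, adjusted p from edgeR = 0.149). Prodh2, hydroxyproline dehydrogenase, had a log2 fold change of -0.45 with overlapping groups (adjusted p from edgeR = 0.247). Oat, ornithine aminotransferase, was at 75.1, 60.3 and 70.7 FPKM in Control and at 62.3, 64.0 and 75.0 FPKM in KSPAPN, and its log2 fold change of -0.029 ± 0.11 (SE) changed sign with total counts as the only scaling (0.036) and after the correction for GC content and gene length (0.020).

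The branched-chain pathway, the largest group with 17 members, had the median nearest to 0. Only Bckdha passed, and the median log2 fold change of the 17 was -0.11, beside -0.35 for glycine and serine, -0.54 for the aromatic amino acids, -0.57 for tryptophan, -0.35 for proline and hydroxyproline, -0.28 for lysine, -0.59 for sulphur, -0.47 for the transaminases and -0.61 for arginine. Whether these medians differ was not tested. The 1 call among 17 stands beside 2.25% of all genes tested and 5.64% of those at 10 FPKM or more. Bckdha encodes the E1 alpha subunit of the branched-chain keto acid dehydrogenase, the complex that commits leucine, isoleucine and valine to oxidation. It was at 53.8, 45.8 and 43.9 FPKM in Control and at 36.9, 28.2 and 26.7 FPKM in KSPAPN. Its mean fell from 47.8 ± 5.26 to 30.6 ± 5.50 FPKM (SD, n = 3), a log2 fold change of -0.63 ± 0.14 (SE, adjusted p from edgeR = 0.0403).

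The partners of Bckdha did not pass. Bckdhb, the E1 beta subunit, had a log2 fold change of -0.13, Dbt, the E2 subunit, of -0.055, and Bckdk, the kinase that inhibits the complex, of 0.047, all with overlapping groups. The ratio of Bckdha to Bckdhb was 1.76, 1.53 and 1.57 in Control and 1.32, 0.944 and 1.18 in KSPAPN, without overlap (exact permutation test, two-sided p = 0.1, the smallest possible). Of the exon bases of Bckdha, 61.7% also belong to B3gnt8 on the opposite strand, which had 40 to 103 reads per library.

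Most other branched-chain enzymes lay within a narrow range. Ivd, isovaleryl-CoA dehydrogenase of leucine breakdown, was at 98.5, 95.1 and 85.5 FPKM in Control and at 70.7, 81.2 and 71.6 FPKM in KSPAPN (log2 fold change -0.32, adjusted p from edgeR = 0.120). Mcee, methylmalonyl-CoA epimerase, was at 47.5, 44.0 and 38.6 FPKM in Control and at 28.4, 37.9 and 36.7 FPKM in KSPAPN (log2 fold change -0.33, adjusted p from edgeR = 0.193). Aldh6a1, the valine enzyme that was the most abundant of the group, was at 134, 153 and 132 FPKM in Control and at 114, 152 and 145 FPKM in KSPAPN, with overlapping groups. Its log2 fold change of -0.026 ± 0.12 (SE) changed sign with total counts as the only scaling (0.040).

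Among the rest, the leucine enzymes Mccc2, Mccc1 and Auh had log2 fold changes of -0.27, -0.099 and -0.10. The valine enzymes Hibadh and Hibch were at -0.34 and -0.21. The propionyl-CoA carboxylase subunits Pcca and Pccb were at -0.11 and -0.16, and their ratio overlapped between the groups. Bcat2, the mitochondrial aminotransferase that takes the first step, was at 0.0061, and the acyl-CoA dehydrogenases Acad8 and Acadsb were at 0.069 and 0.20. None of these 10 passed in edgeR, and after the correction for GC content and gene length Hibadh did (adjusted p from edgeR = 0.0263). Of the exon bases of Bcat2, 15.95% also belong to an antisense gene, 0610005C13Rik. That gene had 2264 to 3202 reads per library, beside 1505 to 2272 on Bcat2.

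Members that fell were found in both the cytosol and the mitochondria, while most members of either did not pass. Of 18 tested cytosolic enzymes 7 fell, with a median log2 fold change of -0.59 and 1 value above 0. That value was of Tdo2, which was tested only through its reads in KSPAPN. Of 34 mitochondrial enzymes 5 fell, with a median of -0.26 and 6 values above 0, among them Gldc. Of all genes tested 2.25% fell, and of those with a mean of at least 10 FPKM 5.64%. The enzymes assigned to both, Glyctk and Aldh7a1, were at -0.36 and -0.28. The difference between the compartments was not tested.

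A further list of 101 amino acid genes outside the 55, among them other steps of the same pathways, was fitted in the same way. Of the 89 that could be tested, 14 fell and 0 rose at an adjusted p under 0.05 in edgeR, so that 15.7% fell beside 2.25% of all genes tested. Their median level was 19.6 FPKM, beside 3.99 FPKM for all genes tested. Of the genes with a mean of at least 10 FPKM, 5.64% fell. The median log2 fold change was -0.21, with 73 values below 0 and 16 above. The 3 further arginine genes tested had a median of 0.24, and none of them passed. In the glutamate and aspartate group, Glul, glutamine synthetase, and Asrgl1, an asparaginase, were higher in all KSPAPN libraries than in any Control library, with log2 fold changes of 0.29 and 0.43, and neither passed (adjusted p from edgeR = 0.162 and 0.179). They were the only 2 of the 89 with such a gap upward, which 10.8% of all genes tested had. The 12 that could not be tested were Sds, Tdh, Agxt, Hao1, Tat, Il4i1, Ido1, Mat1a, Arg1, Cps1, Otc and Nags, several of them known as liver enzymes.

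Among the 14 genes that fell on that list, the largest decreases were of 2 genes grouped under histidine. That group had 7 genes tested, 5 with values below 0 and 2 above. Uroc1, urocanase of histidine breakdown, had a log2 fold change of -1.92, and Cndp2, a dipeptidase that releases amino acids from dipeptides, of -1.39, at 549, 738 and 422 FPKM in Control and 164, 252 and 236 FPKM in KSPAPN. Afmid, the formamidase of the kynurenine pathway, was at -1.10. Among the sulphur genes, Tst and Mpst, sulphurtransferases that handle sulphide and mercaptopyruvate, were at -0.84 and -0.58, Csad, which makes hypotaurine, at -0.54, and Ahcy, which releases homocysteine, at -0.49.

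The acylases Aspa and Acy1, which free aspartate and other amino acids from their N-acetyl forms, were at -0.98 and -0.64. Of the glyoxylate and choline genes, Aldh9a1 was at -0.72, Grhpr, which reduces glyoxylate, at -0.64, and Chdh, choline dehydrogenase, at -0.60. Acad10, of the acyl-CoA dehydrogenase family, was at -0.48. Each of the 14 genes that fell was lower in all KSPAPN libraries than in any Control library, as were 13.5% of all genes tested. The 14 were picked by their test in the same libraries, so this gap adds nothing to the calls.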

How the data were processed

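RNA of whole kidney was sequenced in 6 libraries, 3 Control and 3 KSPAPN, each a pool of 3 mice. The authors deposited raw read counts per gene as whole numbers, together with their own FPKM values. The submitters' processing notes name STAR 2.5, TopHat, HTSeq 0.6.1, DESeq2 and edgeR without saying which step used which, and a genome build, an annotation and a strand setting were not found in them or in the methods. The Ensembl identifiers were matched to GENCODE M21 on GRCm38 (54495 of 54532). Groups came from the sample labels, and the columns were matched to the samples by group and replicate number.

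Counts were tested with the quasi-likelihood test of edgeR 4.0.16 in R 4.3.3 (TMM normalization, filterByExpr with a minimum count of 10, Benjamini-Hochberg adjustment), two-sided, and a gene was called at an adjusted p under 0.05. The standard error is the log2 fold change divided by the root of the F statistic. FPKM served for levels and ratios only. Alternatives were DESeq2 1.42.0, RLE factors, total counts only, no filter, limma 3.58.1 on log2 FPKM with pseudocounts of 1 and 0.1, a replicate block, omission of single libraries, and splines on GC content and length of the longest transcript per library. The fitting steps were tested on simulated data. Overlap of exons and matches of at least 95% identity over at least 100 bases (blastn 2.17.0) were listed for each member.

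The members and lists were chosen with earlier results of these data known. FPKM in every library is given for members that passed, for those with an unadjusted p under 0.05 and no overlap between groups, and for the most abundant member of each pathway. Gldc, Tdo2 and Cndp2 are given in addition, and were chosen after their values were seen. Proteins were not compared here. A called gene of the further list and an upstream sequence are not reported here. With 17183358 to 20871173 counts per library and 3 pools per group, p-values measure the spread between pools.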

Additional observations from a re-analysis of the deposited data

How the results depend on the processing

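The median log2 fold change of the 54 members stayed below 0 under every alternative tried, between -0.37 and -0.23 with single libraries left out (-0.23 without KSPAPN replicate 1). The number of calls did not stay. With DESeq2, 21 members were lower and 1 higher, with 25 lower genes on the further list of amino acid genes and 744 lower and 181 higher genes in all. Without a filter on low counts the same numbers were 26, 1, 30, 1038 and 301, and 1 gene of the further list was higher. With total counts as the only scaling, 5 members, 9 genes of the further list and 195 genes in all were lower. In limma on log2(FPKM + 1) and on log2(FPKM + 0.1), 0 members, 5 genes of the further list, and 118 or 109 genes in all were lower, and 10 were higher in both. Among the 12 called members the adjusted p from limma was then between 0.0558 and 0.114. The correction for GC content and gene length left 7 members and 9 genes of the further list lower, and 97 genes in all higher. RLE factors gave the same 12 members.

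With single libraries left out in turn, 0 to 11 members and 1 to 16 genes of the further list were lower, 0 to 2 genes of that list were higher, and 34 to 571 genes in all were lower and 5 to 162 higher. The lowest counts came without Control replicate 1 (34 lower, 5 higher), and 0 members were lower also without Control replicate 2 and without KSPAPN replicate 3. The causes were not tested. The sign of Aldh6a1, Oat, Cth and Dbt changed with total counts only (0.040, 0.036, 0.047 and 0.014). That of Oat, Cth and Bckdhb changed after the correction for GC content and gene length (0.020, 0.012 and 0.015). With single libraries left out, Aldh6a1 ranged from -0.10 to 0.10, Oat from -0.11 to 0.038 and Cth from -0.063 to 0.039.

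With the replicate number as a block, the replicate block fit gave 20 lower members and 1 higher, 22 lower genes of the further list, and 705 lower and 224 higher genes in all. Nothing in the labels says that the numbers pair the pools. Deviations of same-numbered libraries from their group means correlated at 0.054, 0.15 and 0.17, and 6 of 6 libraries correlated best with their own number, a hint from the data and not from the design. Tdo2, Bhmt and Hal had few reads, so their values are the least precise by counting.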
